A study of Mus musculus with 28 samples.

Results

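The intervals described here are the stretches of acetylated histone H3 lysine 27 (H3K27ac) that lay at an end of a long non-coding RNA (lncRNA) gene in mouse cranial neural crest cells. An interval was a member when it lay within 1 kb of either annotated end of a GRCm38 RefSeq lncRNA gene and at no protein-coding gene end by the same limit. Of 125509 intervals on chromosomes 1 to 19 and X, 5441 (4.34%) were members. Gene ends and distances alone chose them, so score, width and sequence were not used in the choice. The distance to protein-coding ends was used, since nearer intervals were left out. The list comes from 1 time point and 1 genotype. Cells were taken at E10.5 from embryos labelled WT, as the populations FNP, Mx, Md and PA2, with 1 library each, and the authors called intervals once on the merged reads of these 4 libraries. The other 24 of the 28 libraries of the series (other stages, genotypes, antibodies and inputs) were not used here. The list therefore has no replicates, its depth is unknown, it cannot assign an interval to a population, and no test across samples was possible. Values below describe this list.

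LncRNAs are transcripts that are made and often spliced like messenger RNA but do not encode a protein. Some act at their own locus on a neighbouring gene or a whole chromosome, as Xist does in X inactivation, others act elsewhere in the cell, and for many no function is known. H3K27ac is laid down at active promoters and enhancers, so an interval at a lncRNA start can be the promoter of the lncRNA, and a lncRNA can also be transcribed from an enhancer of a coding gene. The assay does not tell these apart. Cranial neural crest cells leave the dorsal neural tube of the embryo and build much of the skeleton and connective tissue of the face.

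All 8 marker genes of crest mesenchyme had an interval at a gene end (median best score 1063), beside 65.8% of all protein-coding genes. So did 5 of 5 endothelial markers (108), 4 of 4 neuronal (641), 2 of 3 muscle (261.5), 2 of 5 blood (1486) and 2 of 5 surface epithelial markers (336.5). The markers without an interval were Gata1 and the embryonic globin genes Hba-x and Hbb-y (blood), Esrp1, Grhl3 and Cdh1 (surface epithelium) and Myod1 (muscle). The part of other cell types in the members was not tested.

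Sequences around 6 lncRNA starts are shown because the CpG content of the start differed between acetylated and bare lncRNA starts. Each covers 250 bases before to 50 bases after the RefSeq start (GRCm38.p6), 5′ to 3′ on the gene's strand, with every CpG in capitals. The first 3 belong to the highest-scored members at a 5′ end of a lncRNA that has a name of its own, with scores of 10876, 8696 and 7334. Chaserr lies upstream of the chromatin remodeller gene Chd2, Snhg8 is a small nucleolar RNA host gene and Oip5os1 is also known as Cyrano. Dnm3os, the host of miR-199a and miR-214, had a member just inside its start (score 2135) and few CpGs. The windows follow the RefSeq start and need not lie inside an interval. That of Dnm3os ends before its member begins, and that of Snhg8 overlaps its member only at the upstream edge. Six3os1, beside the forebrain regulator Six3, and Mir205hg, the host of the epithelial miR-205, had no interval at either end, the first with many CpGs and the second with few. These last 3 were chosen after their values were seen. The windows are chr7:73558346-73558645 (minus strand), chr3:123508287-123508586 (minus), chr2:119594046-119594345 (plus), chr1:162217373-162217672 (plus), chr17:85618347-85618646 (minus) and chr1:193510161-193510460 (minus).
Chaserr: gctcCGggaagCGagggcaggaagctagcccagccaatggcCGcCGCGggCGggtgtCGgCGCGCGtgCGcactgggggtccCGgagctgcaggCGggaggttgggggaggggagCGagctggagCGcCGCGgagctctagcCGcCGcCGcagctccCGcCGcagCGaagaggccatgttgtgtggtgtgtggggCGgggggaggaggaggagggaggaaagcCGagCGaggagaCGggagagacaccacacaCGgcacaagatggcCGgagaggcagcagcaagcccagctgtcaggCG
Snhg8: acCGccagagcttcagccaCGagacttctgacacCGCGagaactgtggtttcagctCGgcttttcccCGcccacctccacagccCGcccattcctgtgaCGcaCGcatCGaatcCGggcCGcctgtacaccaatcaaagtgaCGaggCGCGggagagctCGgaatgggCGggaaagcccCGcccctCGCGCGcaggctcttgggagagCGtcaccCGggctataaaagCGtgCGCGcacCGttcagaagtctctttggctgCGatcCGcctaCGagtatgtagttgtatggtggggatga
Oip5os1: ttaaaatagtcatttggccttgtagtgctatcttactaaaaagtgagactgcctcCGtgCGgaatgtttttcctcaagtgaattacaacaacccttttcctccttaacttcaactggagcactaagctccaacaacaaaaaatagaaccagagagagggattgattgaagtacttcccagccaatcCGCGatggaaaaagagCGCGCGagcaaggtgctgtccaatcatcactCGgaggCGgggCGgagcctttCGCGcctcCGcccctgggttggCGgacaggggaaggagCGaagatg
Dnm3os: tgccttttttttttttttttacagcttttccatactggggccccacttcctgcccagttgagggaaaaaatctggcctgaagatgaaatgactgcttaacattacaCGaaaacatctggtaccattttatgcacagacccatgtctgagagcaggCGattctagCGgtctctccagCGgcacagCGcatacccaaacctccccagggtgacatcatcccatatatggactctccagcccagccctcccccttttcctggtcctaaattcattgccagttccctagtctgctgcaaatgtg
Six3os1: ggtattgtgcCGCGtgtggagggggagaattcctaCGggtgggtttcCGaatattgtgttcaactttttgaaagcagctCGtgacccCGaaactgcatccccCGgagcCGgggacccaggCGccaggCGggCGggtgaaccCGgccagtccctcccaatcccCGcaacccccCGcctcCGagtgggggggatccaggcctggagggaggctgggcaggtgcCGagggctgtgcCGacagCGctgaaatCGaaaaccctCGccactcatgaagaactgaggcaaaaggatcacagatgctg
Mir205hg: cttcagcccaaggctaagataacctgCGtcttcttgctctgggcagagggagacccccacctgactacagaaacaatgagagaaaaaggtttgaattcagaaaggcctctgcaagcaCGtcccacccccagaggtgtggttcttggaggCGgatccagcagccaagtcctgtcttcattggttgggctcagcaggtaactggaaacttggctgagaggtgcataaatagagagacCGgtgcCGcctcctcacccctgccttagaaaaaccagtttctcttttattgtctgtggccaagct
The number of CpGs in these 300 bases was 30 for Chaserr, 30 for Snhg8 and 15 for Oip5os1. It was 5 for Dnm3os, 20 for Six3os1 and 5 for Mir205hg. The ratio of observed CpGs to the number expected from the C and G content was 0.826, 1.04 and 0.801 for the first 3, against 0.298, 0.675 and 0.244 for the last 3. A high score thus came with few CpGs at Dnm3os, and many CpGs came without an interval at Six3os1.

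Of 12697 lncRNA genes, 3845 (30.3%, 95% Wilson interval 29.5 to 31.1%) had a member at an end. Another 1433 had only intervals that also lay at a protein-coding end, which brings the share with any interval to 41.6%, and 7419 (58.4%) had none. Measured in the same way, 65.8% of 21627 protein-coding genes and 12.9% of 10508 pseudogenes had an interval at an end. The gap to coding genes was wider in score, though lncRNAs were scored by their members alone. The score is the value that the authors deposited with each interval. By the convention of the caller MACS2 it is 10 times −log10 of the q-value, so it grows with the reads under the interval. The median best score was 154 over members in lncRNAs with a member, and 2495 over all intervals at the ends of marked protein-coding genes. A member scored at 1000 or more was present at 564 lncRNAs (4.44%), and any interval of that score at 46.0% of protein-coding genes. Intervals shared with a coding end counted for the coding genes only, so 4.44% is a lower limit for lncRNAs. Most marked lncRNAs had 1 member (2485 of 3845, 64.6%), 1008 had 2, 352 had 3 or more, and 610 (15.9%) were marked at both ends. A member lay at ends of 2 or more lncRNAs in 188 cases, so lncRNAs are not independent of each other.

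The members were intermediate in strength. Their median score was 131 (quartiles 82 and 334, range 33 to 18788) and their median width 316 bp (205 and 547 bp, range 141 to 2565 bp). The 97314 intervals away from every annotated gene end had a median score of 98 and a median width of 243 bp, so members were 1.34 times higher in median score and 1.30 times wider. The 20707 intervals at protein-coding ends had a median score of 1116, 8.52 times that of the members, and a median width of 602 bp. Intervals at both a lncRNA and a protein-coding end, which the rule leaves out, were stronger still, with a median score of 1440 and a median width of 668 bp. The quartile ranges of members and distal intervals overlapped, and a score of at least 100 was held by 63.1% of members beside 56.0% of all intervals.

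Members were thinly spread over the score range. They made up 3.61% of the decile of the list with the lowest scores, 6.45% of the ninth decile and 3.82% of the highest. In the same deciles intervals at protein-coding ends made up 3.68%, 36.7% and 77.6%. At like widths the order of scores was the same. Among intervals of 500 bp to under 1000 bp the median score was 415 in members, 2080 at protein-coding ends and 268 away from gene ends, and among those of 1000 bp or more it was 1556, 3804 and 688.

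The upper end of the member distribution held starts of coding genes that the gene ends do not show. RefSeq lists starts inside protein-coding genes, and 288 members lay within 1 kb of one, 5.50% of the 5234 members on chromosomes for which start sequences were used here (2.40% of intervals away from gene ends). Their median score was 1016.5 and their median width 644.5 bp, close to the values at protein-coding ends, and 45.5% of them were in the highest decile of the list. The 4946 members farther than 1 kb from every such start had a median score of 124, a median width of 304.5 bp and 6.77% in the highest decile. The start sequences cover 79.9% of the protein-coding genes and none on chromosome 18, where 207 members lay, so some starts were missed. The plot of score by class shows this split.

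**Figure D1:**
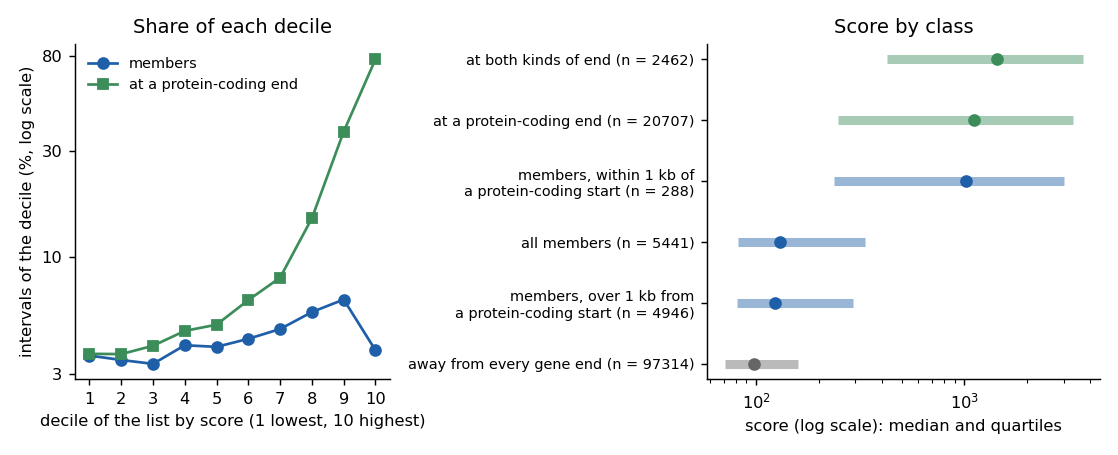
Left, share of the intervals in each decile of the list (1 lowest scores, 10 highest) that were members (circles) or lay at a protein-coding end (squares), on a log scale. Right, median score (point) and quartiles (bar) per class on a log scale: members within 1 kb of a protein-coding start (median 1016.5) lay with the protein-coding ends (1116), and the other members (124) near the intervals away from gene ends (98).

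The 10 members of highest score were between 10423 and 18788. The first was at D230017M19Rik, chr1:72243598-72244259, with a score of 18788, a width of 662 bp and rank 46 in the list. It covered the lncRNA's end and lay 14.9 kb from the nearest coding end, that of Pecr, and 31.3 kb from the nearest listed coding start. LOC115487798 (16142, inside Tex14) and Gm16796 (15217, 7.04 kb from Pfdn4) followed. 3 of the 10 covered a listed coding start: 9430083A17Rik (11773, Spin1), 4930507D05Rik (11503, Supv3l1) and Gm32934 (11105, Cipc). The others were 1700113A16Rik (10955, 5.04 kb from Mef2d), Gm19426 (10951, Ypel4), Chaserr (10876) and Gm13483 (10423, Mmadhc). The member of Chaserr, chr7:73556705-73558451, was 1747 bp wide, covered the lncRNA's 5′ end and lay 15.0 kb from the nearest end of Chd2. Strong members were thus found both at hidden coding starts and far from any listed one. The listed starts are incomplete, so a large distance to them need not mean that no coding start is near. Gm13483 and Gm16796 lay inside a coding gene. The member of Gm13483 was 2.258 kb from an end of Mmadhc, but its nearest listed start, of Lypd6, was 229.5 kb away. For Chaserr the nearest listed start, of Fam174b, was 181.9 kb away.

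Width and score ranked different members. The widest was at Gm46741 (2565 bp, score 183), followed by E130114P18Rik (2460 bp, 259). The latter lay inside Nfia, a transcription factor gene best known from glial cells, and 0.456 kb from a listed start of it. Next came the miRNA host gene Mir99ahg (2342 bp, 2240), Gm10910 at a start of Prdm10 (2309 bp, 7272) and Gm52713 near the TGF-beta pathway repressor Ski (2282 bp, 2248). The lncRNA with most members was Gm30515 with 6 and a best score of 614, 250.7 kb from Sox11. Gm26666, Gm38557, Gm35290 and 2810442N19Rik had 5 each, with best scores of 1239, 824, 683 and 599, as had others beyond these 5 named.

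Acetylation at lncRNAs was more frequent at the 5′ end. RefSeq start sequences gave the strand of 9520 lncRNAs (75.0%). In these, 2207 5′ ends (23.2%, 95% interval 22.3 to 24.0%) and 1217 3′ ends (12.8%, 12.1 to 13.5%) had a member, with median best scores of 163 and 122. In protein-coding genes, where any interval at the end was counted, the shares were 62.8% and 13.0%. At lncRNA ends only members were counted, so the measures differ. The 95% intervals of the 3′ shares overlapped between the classes (12.5 to 13.5% in protein-coding genes), and those of the 5′ shares were far apart. Among ends farther than 2 kb from every protein-coding end the lncRNA shares were 26.5% and 13.6%. Members at a 5′ end only numbered 2659 (median score 141, width 331 bp) and members at a 3′ end only 1302 (112.5, 284 bp). The 201 members at both a 5′ and a 3′ end, which includes ends of neighbouring lncRNAs, had a median score of 230 and a width of 450 bp.

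Around the 5′ end, coverage peaked at the same place as at coding genes, but lower and without their dip upstream. Among 7446 lncRNA 5′ ends farther than 3 kb from coding ends and listed coding starts, the share covered by an interval was 2.18% at 2000 bp upstream. It rose to 8.69% at the end base and 10.7% at 200 bp into the gene, and was 2.70% at 2000 bp inside. Protein-coding 5′ ends, all 17273 with a known strand and no distance limit, peaked at the same place, 200 bp inside, with 53.1%. They had a dip to 26.1% at 100 bp upstream between 34.1% at 300 bp upstream and the peak. In lncRNAs the curve was flat at that place (6.78% at 300 bp and 7.28% at 100 bp upstream) and showed no dip. LncRNA 3′ ends showed no peak: coverage was lowest at the end base (1.52%), 1.72% at 2000 bp outside and 3.10% at 2000 bp inside. Counted over pairs of a member and a 5′ end, the member covered the end base in 773 of 2983 pairs (25.9%). The median score was 317 in these pairs against 123 in the rest. The centre was upstream of the start in 42.2% of pairs.

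**Figure D2:**
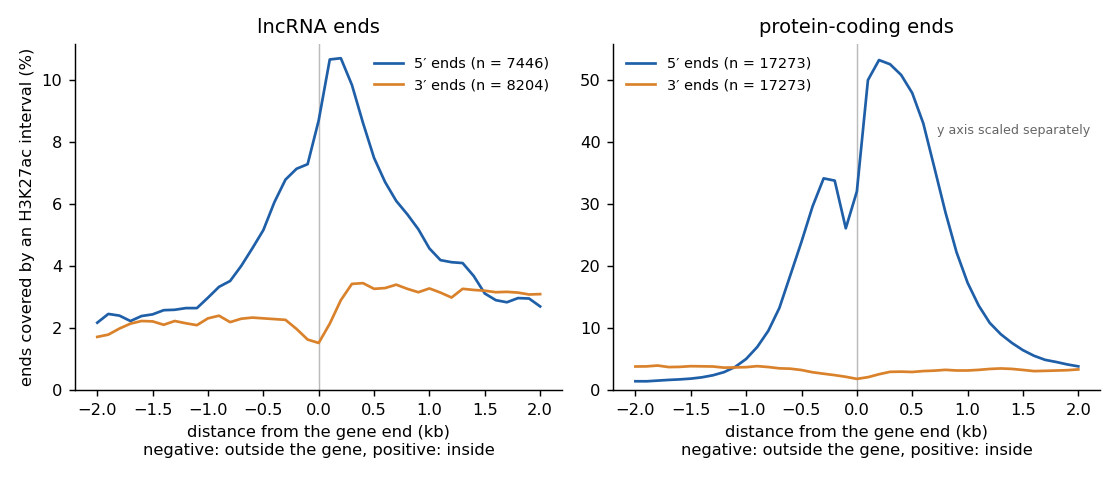
Share of gene ends covered by an H3K27ac interval (y, %) at each distance from the end (x, kb, negative outside the gene), for lncRNA ends (left) and protein-coding ends (right, own y axis), 5′ and 3′ ends apart. LncRNA 5′ ends peaked at 10.7% and protein-coding 5′ ends at 53.1%, both 200 bp inside the gene, while 3′ ends of either class had no peak.

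Interval density gave the same picture with the surroundings as reference. Centres of intervals at no protein-coding end numbered 112 per Mb within 1 kb of lncRNA ends, 70.6 from 1 to 2 kb and 53.1 from 20 to 50 kb, while all intervals averaged 48.9 per Mb of genome. Within 1 kb of 5′ ends the density was 165 per Mb and within 1 kb of 3′ ends 72.6, the latter no higher than the 74.6 found 1 to 2 kb away from 3′ ends. Around pseudogene ends it was 44.5 per Mb within 1 kb, 28.1 from 1 to 2 kb and 37.9 from 20 to 50 kb. The level was lower than at all lncRNA ends. The ratio to the density from 1 to 2 kb was alike, and the ratio to that from 20 to 50 kb was smaller at pseudogene ends. Intervals scored at 1000 or more numbered 26.7 per Mb within 1 kb of 5′ ends, 5.73 from 1 to 2 kb and 2.16 from 20 to 50 kb. At all lncRNA ends they numbered 13.2 and 4.22 per Mb within 1 kb and from 1 to 2 kb, and at pseudogene ends 5.68 and 1.62. From 20 to 50 kb they numbered 2.01 per Mb around lncRNA ends and 1.84 around pseudogene ends. Around protein-coding ends there were 132 per Mb within 1 kb.

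CpG content of the start went with both the share of lncRNAs marked and their score. RefSeq starts at the outer 5′ end of lncRNAs, at least 2 kb from protein-coding ends and listed starts, had a median CpG ratio of 0.275 where a member was present (n = 1893) and 0.198 where no interval was (n = 5533). With a member scored at 1000 or more it was 0.563 (n = 277). A ratio of at least 0.6 was found at 12.7%, 3.56% and 46.2% of these starts, and at 70.7% of 5939 protein-coding starts with an interval. Most acetylated lncRNA starts were therefore poor in CpGs, unlike most acetylated coding starts.

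At like CpG content the marked share was smaller at lncRNA starts than at coding starts in every class but the CpG-poorest. Below a ratio of 0.2, 615 of 3415 lncRNA starts (95% interval 16.8 to 19.3%) and 276 of 2883 protein-coding starts (9.57%, 8.55 to 10.7%) were marked. From 0.2 to 0.4 the shares were 28.0% and 32.6%, from 0.4 to 0.6 they were 32.0% and 70.6%, and from 0.6 to 0.8 they were 46.1% and 91.9%. At 0.8 or more, 73.2% of 142 lncRNA starts (65.4 to 79.8%) and 97.5% of 2538 protein-coding starts were marked. The median best score of marked lncRNA starts was higher in each next class, at 113, 135.5, 181.5, 685.5 and 2067, against 134.5, 432.5, 1624, 2677 and 4066 at coding starts. These intervals cover counting error over starts only, and neighbouring starts share H3K27ac intervals.

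**Figure D3:**
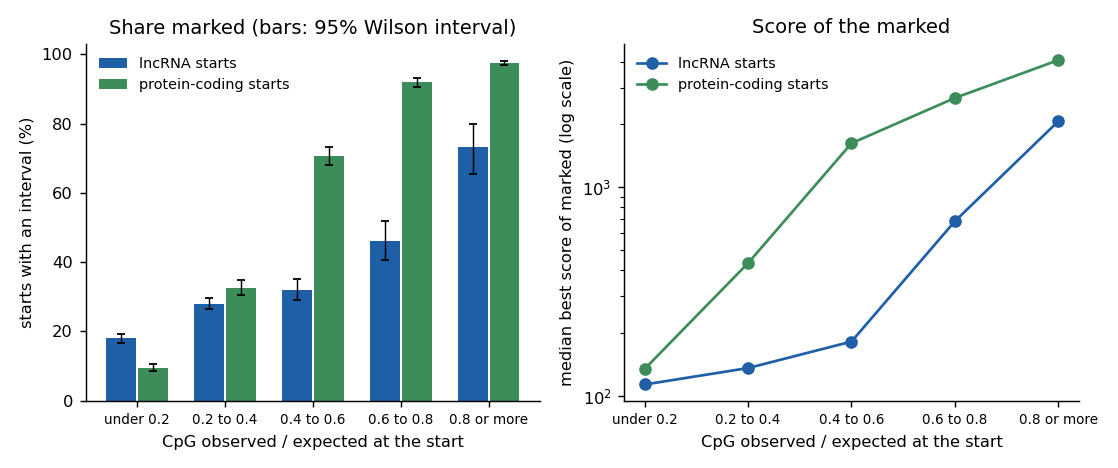
Left, share of outer 5′ starts with an interval (bars, %, with 95% Wilson intervals) by the ratio of observed to expected CpGs, lncRNA and protein-coding starts. Right, median best score of the marked starts (log scale): lncRNA starts ran from 113 to 2067 and protein-coding starts from 134.5 to 4066.

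4 short motifs were searched on both strands of the same 300 bases. The TATA box TATAAA was in 15.0% of lncRNA starts with a member, 18.4% of those without an interval and 16.4% of all starts. The homeodomain core TAATTA was in 6.71%, 7.72% and 6.04%, and the E-box CATCTG in 22.5%, 23.6% and 18.6%. The AP-2 type sequence GCCNNNGGC was in 11.5%, 6.61% and 14.4%, with 24.7% at protein-coding starts with an interval. Outside the N positions it is made of C and G only. A match describes letters and not a bound site.

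Share and score differed between kinds of name, a rough sign of how well a lncRNA is known. Predicted Gm genes made up most of the class, with 3025 of 10102 marked (29.9%, median best score 143), and Rik clones had 575 of 1787 (32.2%, 230). LOC genes had the lowest share, 20.8% of 307, with a median best score of 239. Named antisense genes had a member in 27.6% of 221 cases but any interval in 57.0%. Among 249 lncRNAs with other names 103 (41.4%) were marked, with a median best score of 422. By length the share was 24.7% below 2 kb, 31.8% at 2 to 5 kb, 31.5% at 5 to 20 kb, 29.3% at 20 to 100 kb, with 76 of 281 at 100 kb or more. The X chromosome stood below every autosome, with 50 of 289 lncRNAs marked (17.3%, 95% interval 13.4 to 22.1%) against 23.5% (chromosome 14) to 36.0% (chromosome 12). The X was also lowest for protein-coding genes (46.5% marked, autosomes 52.6 to 76.0%), while members were 4.05% of its intervals (autosomes 3.56 to 5.02%). The median best score of the marked X lncRNAs was 427.

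Snhg genes carry small nucleolar RNAs in their introns, and many of them are expressed in most cells. They had the highest share and scores of any name class. A member was present at 12 of 17 (70.6%), and any interval at 94.1%, beside 30.3% and 41.6% of all lncRNAs. Their median best score was 4059.5. The highest was at Snhg8 (8696), then Snhg7 (6891), Snhg5 (5944), Snhg16 (4744) and Snhg20 (4528), and the lowest at Snhg11 (149). Snhg6, Snhg1, Snhg10 and Snhg18 shared their interval with a coding end, with scores of 6912 (Mcmdc2), 5304 (Slc3a2), 1775 (Glrx5) and 1665 (Sema5a). Snhg14, a very long transcript of the imprinted Snrpn region, had no interval at either end.

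A set of 56 lncRNAs with a known name or function gave 35 (62.5%) with a member, 8 with only a shared interval and 13 with none, and a median best score of 767. Another 4 names of that set had no entry as a lncRNA in the gene table. The set was drawn up for its place in the literature and earlier results of these data were known, so its share is given as a description.

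LncRNAs that most cell types express all had an interval. Of all lncRNAs, 41.6% had any interval and 30.3% had a member. Of 8, 5 had a member and 3 only a shared interval: Oip5os1 had scores of 7334 and 463, and Malat1, an abundant nuclear RNA of speckles, 5665 and 871. Norad, which binds Pumilio proteins, had 4201 and 393, and Neat1, the scaffold of paraspeckles, 1244, 564 and 165. Epb41l4aos had 2624, besides an interval of 8264 shared with Epb41l4a. Zfas1 (5855), Tug1 (4966) and Gas5 (3693) shared theirs with the ends of Znfx1, Morc2a and Zbtb37.

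Of 4 X-linked lncRNAs, which are Firre and 3 of the X-inactivation centre, all had a member, beside 17.3% of all X lncRNAs. Jpx, an activator of Xist, had the highest score, 4615, followed by Ftx (1140), Xist (842 and 85), the RNA that coats the inactive X, and Firre (666 and 415), which helps to organise nuclear contacts of the X. Among 8 imprinted lncRNAs 6 had a member, beside 30.3% of all lncRNAs. These were Peg13 (2388 and 449), Airn (1175 and 732), Kcnq1ot1 (612 and 123), Meg3 (555, 246 and 131), Mirg (555, 79 and 68) and H19 (505 and 72). Airn and Kcnq1ot1 silence neighbouring genes on the paternal chromosome, and Meg3 and H19 are made from the maternal one. The best member of Mirg was at its 3′ end. Rian and Snhg14 had none.

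The lncRNAs of the Hox clusters had weak members or none. Of 10, 6 had no interval at either end, a share near the 58.4% of all lncRNAs. These were Hotair of the HoxC cluster, Hottip at the 5′ end of HoxA, Hoxa11os, Hoxaas3, Hoxb5os and Hoxd3os1. The 3 with a member lay at the 3′ side of HoxA with low scores, Hotairm1 (189), Halr1 (84) and Hoxaas2 (54, besides 348 shared with Hoxa3), and Hoxb3os had an interval (800) shared with Hoxb2. Hox genes of the 3′ groups are those known to be used in the hindbrain and second arch. The share is read over few genes that share neighbours.

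Of 14 lncRNAs beside regulators of development, 5 had a member, near the 30.3% of all lncRNAs, 4 had only a shared interval and 5 had none (58.4% of all). Zeb2os (2941 and 171) lies beside Zeb2, a regulator of crest migration, and its stronger member also covered a listed start of Zeb2. Pantr2 (1111) and Pantr1 (158 and 82) flank Pou3f3, a gene of the upper first arch, and the members of Pantr1 lay 1.524 and 1.006 kb from Pou3f3, near the limit of the rule. Pantr1 also had an interval of 842 shared with the Pou3f3 end. Crnde had 767 and 117 and lies beside Irx5, with whose end it shared another interval (691), and Sox2ot had 84 and 67. Hand2os1 (635), Fendrr (427), Dlx4os (265) and Lhx1os (80) had only intervals shared with the ends of Hand2, Foxf1, Dlx4 and Lhx1. Dlx6os1, Six3os1, Otx2os1, Pax6os1 and Nkx2-2os had none at an end. Dlx6os1 still held 6 intervals in its body, the highest at 1068, while Six3os1 held none.

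Of the other 12 known lncRNAs, those left over from the groups above, all had a member. The share was 62.5% in the known set and 30.3% of all lncRNAs. Lockd, near the cell-cycle inhibitor gene Cdkn1b, had 3710 and 761, Carmn, a lncRNA of smooth muscle and cardiac precursors, 3141 and 1943, and Pvt1, beside Myc, 2020. Dnm3os had a single member of 2135 that was 1813 bp wide and began just inside its 5′ end, 235.2 kb from the nearest end of Dnm3, the gene that contains it. Morrbid (90), Rmst (161 and 128) and Trp53cor1 (188 and 95) were at the low end.

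miRNA host genes were marked in 5 of 14 cases (35.7%), close to the 30.3% of all lncRNAs, with best scores of 2240 at Mir99ahg, 1496 at Mir22hg, 1057 at Mir100hg, 297 at Mir1a-1hg, a host of muscle miRNAs, and 287 at Mirc35hg. Mir99ahg and Mir100hg hold clusters of the miR-99, let-7 and miR-125 families. The 9 without an interval at an end were Mir124a-1hg, Mir124-2hg and Mir9-3hg, hosts of neural miRNAs, Mir155hg of immune cells, Mir205hg of epithelia, Mir133a-1hg of muscle, Mir17hg, Mir217hg and Mir670hg. Of these, 5 held an interval in the gene body, with highest scores of 4695 in Mir670hg, 738 in Mir9-3hg, 452 in Mir217hg, 117 in Mir133a-1hg and 57 in Mir124a-1hg.

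**Figure D4:**
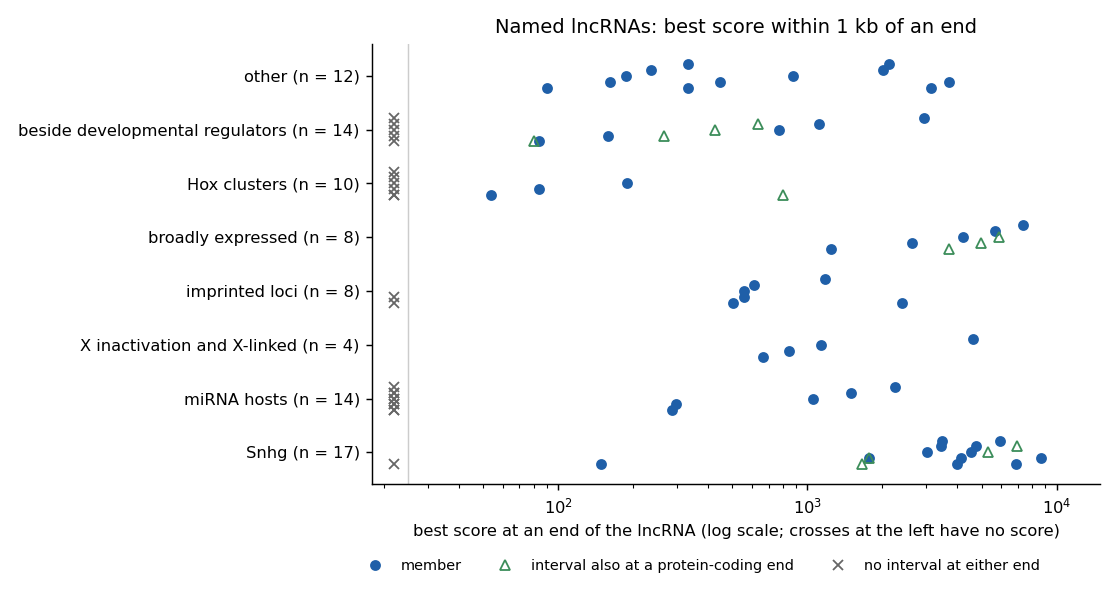
Best score within 1 kb of an end (x, log scale) for each named lncRNA by role (y). Circles are members, triangles intervals that also lie at a protein-coding end, and crosses lncRNAs with no interval; Snhg genes had a median of 4059.5, and the 3 Hox cluster members lay between 54 and 189.

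Of the members, 78.2% lay within 100 kb of a coding gene end. The median distance to the nearest protein-coding end was 29.9 kb (quartiles 10.48 and 84.5 kb), 2123 members (39.0%) were within 20 kb and 1185 (21.8%) were over 100 kb away. Intervals away from gene ends had a median of 41.1 kb. The nearest genes numbered 2782, which is 12.9% of protein-coding genes, and 32.7% of protein-coding genes had a member within 100 kb. Median score was lower farther from coding ends. It was 232.5 at 1 to 5 kb, 147 at 5 to 20 kb, 126 at 20 to 100 kb and 108 beyond, while distal intervals had 116, 99, 97 and 94. With members at listed coding starts and all members of chromosome 18 left out, the medians were 173, 137, 122 and 106. The 479 members in the highest decile of the list had a median distance of 12.1 kb.

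The share of lncRNAs with a member was lowest next to coding ends. It was 13.2% of 2039 lncRNAs within 1 kb of a coding end, where the rule removes shared intervals and 76.0% had an interval of any kind. It was 32.1% at 1 to 5 kb, 35.2% at 5 to 20 kb, 35.4% at 20 to 100 kb and 30.1% beyond 100 kb. Among strand-matched lncRNAs farther than 2 kb from coding ends, those that overlap a coding gene on the opposite strand were marked in 562 of 1463 cases (38.4%, 95% interval 36.0 to 40.9%). Those that overlap a coding gene on the same strand were marked in 55 of 175 cases (31.4%, 25.0 to 38.6%). Those apart from a coding gene were marked in 34.8% (convergent), 33.7% (same strand) and 32.2% (divergent). Members at listed coding starts were kept in these counts. The nearest coding gene had an interval at its own end for 80.8% of 3845 lncRNAs with a member and 70.5% of 7419 with no interval. Farther than 2 kb away the shares were 81.0% and 74.4%. Counted by interval, the nearest coding gene was marked for 80.7% of members, 81.6% of intervals away from every gene end and 71.2% of members in the highest decile, so this was no more frequent for members than for distal intervals.

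Around genes of facial development the lncRNAs of the crest mesenchyme list stood highest. Of 78 lncRNAs whose nearest coding gene was in that list, 35 (44.9%) had a member, beside 30.3% of all lncRNAs. The shares were 8 of 20 near maxillary and proximal genes, 5 of 13 near Hox groups 1 to 3, 24 of 64 near signalling genes, 9 of 25 near mandibular and distal genes, 12 of 42 near genes of other lineages and 5 of 21 near frontonasal genes. Counted by gene, 14 of 29 crest mesenchyme genes and 15 of 28 signalling genes were nearest to a member. The share was 12.9% of all coding genes and 15.4% of those with an interval at an end. A gene with more lncRNAs and intervals nearest to it has more chances to be counted. The 29 crest mesenchyme genes had 78 lncRNAs and 1029 member or distal intervals nearest, against 12697 and 102755 for all 21627 coding genes. The other lists gave 5 of 11 (mandibular), 4 of 9 (maxillary), 3 of 9 (frontonasal), 3 of 8 (Hox) and 4 of 20 (other lineages). Of the member and distal intervals nearest to all coding genes, 5.30% were members. The corresponding counts were 50 of 1029 (4.86%) for crest mesenchyme genes, 11 of 260 (4.23%) for frontonasal, 8 of 163 (4.91%) for maxillary and 38 of 642 (5.92%) for signalling genes. They were 17 of 138 (12.3%) for mandibular genes, 12 of 93 (12.9%) for genes of other lineages and 4 of 13 for the Hox genes.

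**Figure D5:**
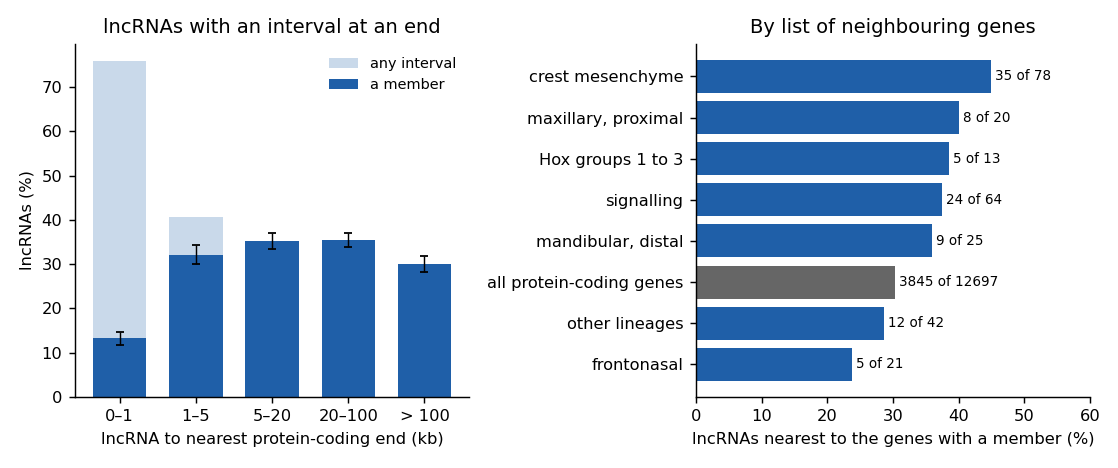
Left, share of lncRNAs (%) with a member (dark, with 95% Wilson intervals) or any interval (light) by the distance to the nearest protein-coding end. Right, share of lncRNAs with a member among those whose nearest protein-coding gene is in each list, from 35 of 78 for crest mesenchyme to 5 of 21 for frontonasal genes, with all genes in grey.

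Single loci show how members were arranged. Nr2f1, a nuclear receptor gene of the frontonasal and maxillary crest, was nearest to 8 members at 4 lncRNAs, with a highest score of 336 at 3110006O06Rik. Pou3f3 had 4, led by Pantr2. In the mandibular list, Hand2, the regulator of the distal lower jaw, had 6. Its lncRNA Hdnr had scores of 333 and 350 at one end and 101 and 671 at the other, 7.92 to 29.3 kb from Hand2. Msx2 had 5, the strongest (854) at Gm34332, 215.9 kb away, Msx1 had 3 (424 at Gm20052) and Gsc 2 (319 at Gm10000, 1.138 kb away). Dlx2 had a single strong one, 1950 at Gm36909, 108.8 kb away. Alx1, Alx4, Pax3, Pax7, Dlx1, Dlx5, Dlx6 and Hand1, all marked at their own ends, were nearest to none.

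In the crest mesenchyme list Meis1, a cofactor of Hox proteins, had 9 members, the strongest at 8430419K02Rik (828). Nfia had 7 (2155 at Gm38709, 199.6 kb away), and Zeb2 (2941 at Zeb2os), Nfib (855 at Gm11264) and Tcf4 (274 at Gm31088) had 5 each. Sox9, the regulator of cartilage, had 4, with a highest score of 250. Twist1, Prrx1, Runx2, Foxc1 and Foxf2 were nearest to none. Among signalling genes, Id2 had 7 members, all weak (at most 108), Fgfr2 5 (365 at Gm33555) and Bmp4 5. Of the members of the Bmp4-neighbouring lncRNA Rubie, 1 (84) was nearest to Bmp4, 176.8 kb away, and the other (153) to Cdkn3, while the strongest near Bmp4 was 476 at Gm15222, 2.577 kb away. Id3 had 1 strong member, 1114 at Gm42329, 2.398 kb away. In the list of other lineages Sox2 had 5, led by Gm34941 (845), and Neurog1 2 (595 at 4930550C17Rik), while Gata1, Myod1, Olig2 and Hnf4a had none.

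At the edges of the rule distances were continuous. The farthest members lay 1000 bp from a lncRNA end and the nearest intervals left out 1001 bp. On the coding side the nearest members lay 1003 and 1005 bp from a protein-coding end and the farthest intervals left out 1000 bp.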

How the data were processed

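H3K27ac was measured by ChIP-seq in sorted mouse cranial neural crest cells. A note deposited beside the intervals states that the authors pooled 4 libraries and ran MACS2 2.1.3.3 on the pool with no model, shift 0, extension size 141 bp, all duplicates retained and q at most 0.001. It names no control. Per the submitters' processing notes, tools include bcl2fastq 2.17 and Bowtie 1.1.1, and builds GRCm38 and mm10. The deposited value is a score per interval, the authors' own, used only to describe and rank within this list. Where the cells of an interval came from, and read depth, are unknown.

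Gene ends came from a RefSeq table of GRCm38.p6, and strand, starts and 300-base sequences from RefSeq start sequences of the same build, matched by gene ID. Distances were computed with Python 3.11.15, numpy 2.4.6 and pandas 2.3.3 (an overlap of 1 bp gives distance 0), and Wilson intervals with scipy 1.17.1 (95%, counting error only). The distance code was tested on simulated intervals with known answers. LncRNAs were named from lists of known, Snhg and miRNA host genes, and members by rank of score (10) and width (5), number per lncRNA (5) and neighbouring gene. The members and lists were chosen with earlier results of these data known. No test across features was run. Alternatives varied the distance limit, the score, the treatment of coding ends, the lncRNAs counted and the joining of intervals.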

Additional observations from a re-analysis of the deposited data

Results flagged for a closer look

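The Y chromosome was outside the rule and was not used above. It held 71 intervals and 30 lncRNA genes, and 4 intervals lay within 1 kb of a lncRNA end and at no protein-coding end, the highest with a score of 616. They are given because they are a signal in data that the comparisons leave out, with no control sample to set them against.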

How the results depend on the processing

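Only the removal of the 0.1% of intervals with the highest scores left all 5 summary values in place (number of members, share of lncRNAs marked, median score, median width, share of members within 20 kb of a coding end). Every other alternative moved at least 1 of them. A limit of 500 bp gave 24.3% of lncRNAs marked, a median score of 154, a median width of 354 bp and 42.3% of members within 20 kb of a coding end. A limit of 2.5 kb gave 8736 members, 41.7% of lncRNAs marked, a median score of 115, a median width of 284 bp and 33.7% of members within 20 kb of a coding end. Intervals that cover the end base gave 1467 members, 11.5% of lncRNAs marked, a median score of 418, a median width of 590 bp and 56.7% of members within 20 kb of a coding end. Scores of at least 100 gave 3433 members, 20.6% of lncRNAs marked, a median score of 242, a median width of 457 bp and 42.4% of members within 20 kb of a coding end. The higher-scored 50% gave 3113 members, 18.9% of lncRNAs marked, a median score of 276, a median width of 488 bp and 43.2% of members within 20 kb of a coding end. With intervals at coding ends kept there were 41.6% of lncRNAs marked, a median score of 213, a median width of 401 bp and 58.0% of members within 20 kb of a coding end. With those within 5 kb of a coding end left out there were 26.6% of lncRNAs marked, a median score of 125, a median width of 307 bp and 30.3% of members within 20 kb of a coding end. Without Gm genes there were 1220 members, 31.6% of lncRNAs marked, a median score of 195, a median width of 378 bp and 45.7% of members within 20 kb of a coding end. Joining intervals up to 1 kb apart gave 29.5% of lncRNAs marked, a median score of 146 and a median width of 574 bp. Without intervals at listed coding starts (those of chromosome 18 kept) there were 28.8% of lncRNAs marked, a median score of 125, a median width of 307 bp and 36.8% of members within 20 kb of a coding end. Without lncRNAs that overlap a coding gene there were 3561 members, a median score of 124 and 31.4% of members within 20 kb of a coding end. The last 2 alternatives were chosen after seeing the data. Each alternative changes which intervals or genes are counted, which by construction moves these values. No paired analysis was possible because the list pools 4 libraries and no result comes from a test. The pooled list limits every statement to the 4 populations together. Without depth, a lncRNA with no interval is below the caller's limit at an unknown depth and is not shown to lack acetylation. Scores have no error, the annotation of lncRNA ends is incomplete, and the direction is known for 75.0% of lncRNAs.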
